A study of Mus musculus with 2 samples.

Results

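Granule-rich maturing neutrophils were examined in single-cell RNA sequencing of mouse periodontal ligament, the connective tissue that holds the tooth root in its socket. A barcode is the droplet label that stands for 1 cell, and a unique molecular identifier (UMI) stands for 1 captured RNA molecule. A barcode was counted as a granule-rich neutrophil when S100a8 plus S100a9 made up at least 2% of its UMIs and Camp plus Ngp plus Ltf at least 1%. After barcodes with fewer than 200 genes or over 20% mitochondrial counts had been removed, 1760 were left, and 77 of them met both conditions. They were 23 of 348 barcodes in the control library and 54 of 1412 in the library of orthodontic tooth movement (OTM). The mice of both groups were 8-week-old C57BL/6J males. The OTM group came from the left side of the upper jaw, where the first molar had been under a mesial force of 10 g for 6 days, and the control group from the right side, which carried no force; the labels do not say whether both sides came from the same mice. Each group was a pool of 5 mice in 1 library, tissue was taken from pulled roots and from their sockets, and the labels name neither a cell sort nor a removal of blood. With 1 library per group no spread between mice could be measured. No test between the groups was therefore possible, and every comparison below is between these 2 libraries, with intervals that cover counting error only.

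Neutrophils are made in the bone marrow and fill their granules in waves. Promyelocytes make the primary (azurophil) granules with myeloperoxidase and serine proteases; myelocytes and metamyelocytes make the specific granules with lactoferrin (Ltf), cathelicidin (Camp) and neutrophilic granule protein (Ngp); gelatinase granules follow as the cells stop dividing. Granule transcripts then decline, so a neutrophil that still holds them is usually read as one that is not yet fully mature, while S100a8 and S100a9, the subunits of calprotectin, are abundant from the myelocyte stage on. Factors of the C/EBP family, C/EBP-epsilon (Cebpe) above all, are known to drive the specific granule genes.

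The 3 specific granule genes of the selection lie near each other on chromosome 9, within 1.20 Mb of GRCm38. In the GENCODE annotation Camp spans chr9:109847379-109849617 on the minus strand, Ngp chr9:110419747-110423012 on the plus strand and Ltf chr9:111019271-111042767 on the plus strand. Their promoters are shown because these 3 genes choose the cells. Each is the stretch of 250 bases before the RefSeq start of the gene in GRCm38.p6, written from 5′ to 3′ on the strand of the gene: chr9:109849457-109849706 for Camp, chr9:110419558-110419807 for Ngp and chr9:111019042-111019291 for Ltf. RefSeq starts lie inside the GENCODE spans, so each stretch overlaps the first bases of the GENCODE gene. Capitals mark matches on either strand to TTNNGNAA, or TTNCNNAA on the other strand, a loose form of the C/EBP motif.
Camp: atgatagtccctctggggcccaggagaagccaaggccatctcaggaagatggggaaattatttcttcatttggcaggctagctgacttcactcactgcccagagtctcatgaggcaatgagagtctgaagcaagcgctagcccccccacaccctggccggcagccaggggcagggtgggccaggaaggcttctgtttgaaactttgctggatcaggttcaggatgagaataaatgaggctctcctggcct
Ngp: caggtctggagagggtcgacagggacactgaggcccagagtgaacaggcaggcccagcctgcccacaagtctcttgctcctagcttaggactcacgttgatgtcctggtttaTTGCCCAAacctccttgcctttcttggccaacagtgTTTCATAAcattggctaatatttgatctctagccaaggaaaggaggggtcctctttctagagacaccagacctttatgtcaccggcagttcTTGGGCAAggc
Ltf: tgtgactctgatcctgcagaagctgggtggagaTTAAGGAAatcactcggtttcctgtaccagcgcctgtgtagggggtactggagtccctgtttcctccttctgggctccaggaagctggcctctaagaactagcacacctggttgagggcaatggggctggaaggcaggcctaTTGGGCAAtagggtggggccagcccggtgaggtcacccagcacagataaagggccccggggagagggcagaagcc
Ngp had 3 matches, whose first bases lie 138, 102 and 11 bases before the start, and Ltf had 2, at 217 and 75 bases. Camp had 0 in this window. In the same window Chil3 had 3 matches, S100a9 had 2, and Lcn2 and S100a8 had 1 each. Of 32851 RefSeq promoters of this length, 12104 (36.8%) held at least 1 match, so a match describes the letters and not a bound site.

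Granule shares near the threshold are given once as a description. The lowest granule shares among members were 1.21% and 1.24% in the control library and 1.15% and 1.46% in the OTM library. The highest shares among barcodes that met the S100a8 and S100a9 condition but not the granule condition, called granule-low neutrophils here, were 0.459% and 0.403% in the control library and 0.935% and 0.924% in the OTM library. OTM barcodes thus lay close to the threshold on both of its sides. Of these granule-low barcodes, 12 of 18 and 81 of 117 had a granule share of 0. No kept barcode reached the granule condition without the S100 condition, and no barcode that was removed for few genes or mitochondrial counts met both.

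**Figure D1:**
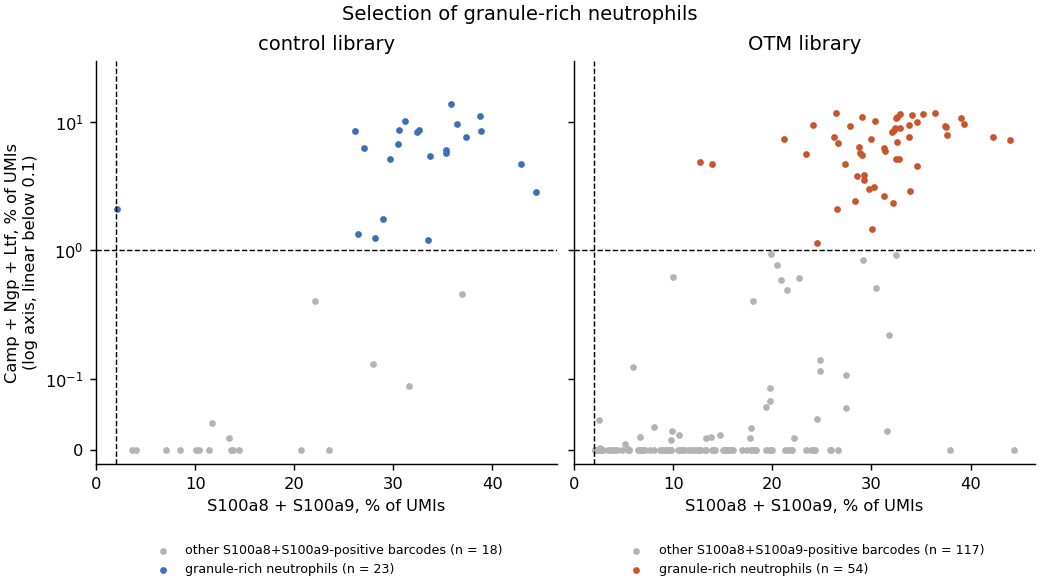
Share of UMIs from S100a8 plus S100a9 (horizontal axis, percent) and from Camp plus Ngp plus Ltf (vertical axis, percent, log scale that is linear below 0.1) for each barcode with at least 2% S100a8 plus S100a9, in the control (left) and OTM (right) library. Coloured points are the 23 and 54 granule-rich neutrophils, grey points the 18 and 117 granule-low barcodes, and dashed lines the thresholds; 1 control member sits at an S100 share of 2.09%, far to the left of the others.

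Among members, S100a8 plus S100a9 took from 2.09% to 44.4% of UMIs in the control library (median 32.6%) and from 12.7% to 44.0% in the OTM library (median 31.3%). The granule share ran from 1.21% to 13.8% (median 6.33%) and from 1.15% to 11.8% (median 7.36%). These values chose the cells and are given as a description. One control member stood apart: it had 575 UMIs, an S100 share of 2.09% against 26.1% in the next lowest control member, fibroblast markers at 2.26% of its UMIs and mitochondrial genes at 7.13%.

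Library facts bear on the precision. Members held 418737 UMIs in the control (575 to 37031 per cell, median 17219, with a median of 2517 genes) and 1007962 in the OTM library (1071 to 70851, median 13452.5, with 2377 genes), and the median mitochondrial share was 0.536% and 0.478%. Granule-low barcodes held fewer UMIs each, with medians of 5473 and 4633 and totals of 130663 and 1067116. The 2 libraries shared 0 barcodes, 2 control members had under 1000 UMIs, and Scrublet, a doublet caller, marked 1 OTM member. CPM below means counts scaled to 1000000 summed UMIs of a group of cells, or of the UMIs of 1 cell where a single cell is named.

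The genes that chose the cells are given first, as a description and not as a check of the label. Camp was found in all 77 members, from 956 to 61536 CPM per cell in the control (median 22609) and from 1070 to 57987 in the OTM library (median 31272). Ngp was found in all of them too, from 7481 to 68857 (median 34480) and from 3354 to 68863 (median 32805). Ltf had medians of 7915 and 7591 CPM, and it was 0 in 2 control members and 1 OTM member. The cells of the libraries overlapped over most of their range for each of these genes. In barcodes outside both neutrophil groups, the 5 genes of the selection summed to 82.1 CPM in the control and 290 in the OTM library, against 409183 and 385129 in members.

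The label was read against genes that the selection did not name and against markers of other cell types. Against all other barcodes of the same library, the leading genes were Fcnb, Cebpe, Lcn2, Ly6g, Cd177, Itgb2l, Gca, Chil3, Ifitm6 and Ceacam10. Lcn2, lipocalin-2 of the specific granules, was at 18780 CPM in control members against 104 in other control barcodes, and at 17678 against 83.3 in the OTM library. Cebpe was at 299 CPM against 0.193 and at 378 against 1.85, and Ly6g, the surface marker of mouse neutrophils, at 504 against 1.74 and 452 against 3.22. The cells were picked by co-varying transcripts, so these ratios describe them and test nothing. By the same description 661 of 10581 genes (6.25%) were at least 2-fold higher than in other barcodes in both libraries, and 4884 (46.2%) at least 2-fold lower; 9 of 9 eligible specific granule genes, the 3 of the selection included, were in the first group, and 12 of 14 genes of protein synthesis and the secretory pathway in the second.

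Markers of most other cell types were low. Macrophage or monocyte markers summed to 7.16 CPM in control members and 2.98 in OTM members, with 6 and 7 of 8 genes at 0, and the lineage markers of B and plasma cells to 2.39 and 0.992, with 5 of 6 genes at 0 in each library. Fibroblast markers summed to 107 and 144 CPM, against 58330 and 50806 in barcodes outside both neutrophil groups. Endothelial markers were at 16.7 CPM in control members (5 of 6 genes at 0) and 159 in OTM members (0 of 6), and osteoblast markers at 7.16 and 118. The endothelial share was highest in 1 OTM member of 51595 UMIs, the one marked as a doublet, in which endothelial markers took 0.281% of UMIs and S100a8 plus S100a9 13.9%. T or NK cell markers were at 19.1 CPM in control and 73.4 in OTM members, above the level in other barcodes of each library. Of these 6 genes Cd3e, Cd3g, Trac and Klrb1c were at 0 in members of both libraries. Nkg7, a granule protein of cytotoxic cells, held 70 of the 74 OTM UMIs, in 6 cells. Of the 70, 32 lay in the OTM member richest in primary granule transcripts. All 82 Nkg7 UMIs of OTM granule-low neutrophils lay in their barcode richest in primary granule transcripts. The osteoclast list was at 1316 and 1082 CPM, with 5 and 3 of its 7 genes at 0. Nearly all of it was Mmp9, also a gelatinase granule gene, with 550 of 551 and 1065 of 1091 UMIs.

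Granule-rich neutrophils made up a smaller part of the OTM library. Their share was 6.61% of control barcodes (23 of 348, exact Clopper-Pearson 95% interval 4.24% to 9.75%) and 3.82% of OTM barcodes (54 of 1412, 2.89% to 4.96%). The difference was -2.78 percentage points, with an interval of -6.07 to -0.153. Intervals of differences put the Clopper-Pearson limits into Newcombe's formula, which usually takes Wilson limits. Among barcodes with at least 2% S100a8 plus S100a9, the share was 56.1% for control (23 of 41, 39.7% to 71.5%) and 31.6% for OTM (54 of 171, 24.7% to 39.1%), a difference of -24.5 points (-41.4 to -6.52). The direction was the same under every threshold tried. The interval of the first difference reached above 0 without the 575-UMI control member (-2.52 points, upper bound 0.0717), and those of both differences did so with a granule threshold of 2% (-1.78 and -15.9 points, upper bounds 0.639 and 1.45). A share is relative to the other cells captured and says nothing of the number of neutrophils in the tissue.

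Expression was then compared between the libraries within these cells. A gene was eligible with at least 20 UMIs over both libraries and at least 3 expected in each at equal CPM; 4949 genes were, and their median log2 ratio of OTM over control was 0.10. Of them 500 (10.1%) were at least 2-fold higher in OTM members and 152 (3.07%) at least 2-fold lower. Ratios against 0 UMIs were taken against a floor of 3 UMIs over the group, which is 7.16 CPM in control and 2.98 CPM in OTM members. The gene lists below held 169 eligible genes, of which 29 were at least 2-fold higher and 3 at least 2-fold lower. Single OTM members weighed on these counts. One was the member rich in endothelial markers, and the other, of 53673 UMIs, was the richest in primary granule transcripts. Without both, 265 of 4536 eligible genes (5.84%) lay at least 2-fold higher and 166 (3.66%) lower, and the list genes past 2-fold were 21 higher and 3 lower of 162. The calls of Ctsg, Eef1a1, Nfkb1, Npm1, Prss57 and Selp were lost. Those of Atf3, Bax, Hspa1a and Zfp36l1 also fell away, since these genes had too few UMIs left to be eligible.

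Specific granule genes were at nearly the same level in the members of both libraries, which were selected by genes of this kind. Of its 10 eligible genes, 1 was at least 2-fold higher and 0 lower, with a median log2 ratio of -0.15 that lay between -0.31 and 0.04 under the alternatives. Ltf, Camp and Ngp are 3 of the 10 and chose the cells in both libraries. The level of the list is therefore a description, and how far the selection set it was not tested. Of those outside the selection, Lcn2 ran from 3478 to 35974 CPM per cell in control members (median 13816) and from 298 to 38018 in OTM members (median 16865), with a log2 ratio of the sums of -0.09. Chil3, a chitinase-like lectin of immature neutrophils, ran from 0 to 15906 (median 3314) and from 0 to 13999 (median 3456), log2 ratio -0.23. Cd177, a surface protein of specific granules, was at 1070 and 744 CPM, log2 ratio -0.52. The cells of the 2 libraries overlapped for Lcn2 and Chil3 over nearly the whole range.

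Olfm4 was the exception. This specific granule protein marks a subset of neutrophils, and it had 0 UMIs in the 23 control members and 209 in OTM members. Against the floor it was 28.9-fold higher. The UMIs lay in 7 of 54 OTM members, with at most 53 in 1 cell and up to 6213 CPM. Granule-low neutrophils had 0 UMIs in the control and 30 in the OTM library, and no other barcode of either library had any.

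The gelatinase and secretory granule list, which belongs to the next wave, held 8 eligible genes, none of them 2-fold apart, with a median log2 ratio of -0.26 (between -0.40 and 0.39 under the alternatives). Mmp9, gelatinase B, was at 1313 CPM in control and 1057 in OTM members, and Mmp25, a membrane-bound metalloprotease, at 131 and 76.4.

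Primary granule genes were the list with the largest ratios, and few cells carried them. All 5 eligible genes were at least 2-fold higher in OTM members, with a median log2 ratio of 6.01 (between 1.67 and 6.45 under the alternatives). Prtn3, proteinase 3, had 5 UMIs in control members and 778 in OTM members (log2 ratio 6.01, 4.79 to 7.64), Elane, neutrophil elastase, 3 and 884 (6.94, 5.38 to 9.22), and Mpo, myeloperoxidase, 1 and 285 (6.89, 4.40 to 12.2). Ctsg, cathepsin G, had 0 and 152, 21.0-fold higher against the floor (lower bound of the log2 ratio 4.08). A single OTM member of 53673 UMIs held 575 of the Prtn3, 815 of the Elane, 262 of the Mpo and 147 of the Ctsg UMIs. In it these 4 genes took 3.35% of UMIs, Camp had 2464 UMIs and Ltf 0. The next OTM member was at 0.347% and the highest control member at 0.0108%. Without that cell the log2 ratio of Prtn3 was 4.16. Ms4a3, a membrane protein of granulocyte progenitors, had 21 UMIs in 5 control members and 183 in 15 OTM members (log2 ratio 1.86, 1.20 to 2.58, and 1.09 without the same cell). Without this cell and the one rich in endothelial markers, 3 genes of the list were eligible, all at least 2-fold higher, with a median of 3.42. Most of what was then left lay in 1 further OTM member, of 70851 UMIs. It held 150 of the 203 remaining Prtn3 UMIs, 68 of 69 for Elane and 23 of 23 for Mpo. Outside the members, barcodes with at least 0.5% of these 4 genes numbered 0 of 325 in the control and 5 of 1358 in the OTM library. Granule-low neutrophils showed the same direction, with 4 of 4 eligible genes of the list higher, a median log2 ratio of 5.15, and sums of 7.65 CPM in the control and 3396 in the OTM library. There too 1 barcode, of 64810 UMIs, held nearly all of the OTM UMIs: 1196 of 1196 for Prtn3, 1046 of 1046 for Elane, 644 of 646 for Mpo and 725 of 725 for Ctsg. It is 1 of the 5 OTM barcodes just named.

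Granulopoiesis factors were close to each other in the 2 libraries, with 0 of 9 eligible genes 2-fold apart and a median log2 ratio of 0.04. Cebpe ran from 0 to 1437 CPM per cell in control members (median 216) and from 0 to 905 in OTM members (median 242), log2 ratio 0.34. Cebpb, the C/EBP factor used in emergency granulopoiesis, ran from 0 to 4310 (median 212) and from 0 to 2801 (median 854), log2 ratio 0.85 with an interval of 0.61 to 1.09. Junb, a subunit of AP-1, ran from 0 to 1986 (median 425) and from 0 to 5528 (median 1056), log2 ratio 0.79 (0.59 to 0.99). For both the OTM median was above the control median, the ranges overlapped, and the ratio of the sums stayed under 2-fold. In granule-low neutrophils the log2 ratios were 0.41 for Cebpb and -0.27 for Junb.

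Of the 15 eligible genes of the cell cycle list 5 were at least 2-fold higher and 0 lower, against 10.1% and 3.07% of all eligible genes. The list median of the log2 ratio was 0.57, between 0.18 and 2.49 under the alternatives. Ube2c, the ubiquitin-conjugating enzyme of the anaphase-promoting complex, had 29 UMIs in 3 control members and 341 in 11 OTM members (log2 ratio 2.29, 1.74 to 2.89). Cdc20, an activator of that complex outside the list, had 2 UMIs in 2 cells and 46 in 12 (log2 ratio 3.26, 1.32 to 6.34), and Birc5, survivin, 30 and 176. Not all division genes were higher: Mki67, the Ki-67 antigen, had a log2 ratio of -0.29 and Rrm2, a subunit of ribonucleotide reductase, -0.56.

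These transcripts came from a small set of cells, called dividing cells here from their transcripts alone. Members with UMIs of at least 3 of the 6 genes Mki67, Top2a, Cdk1, Ube2c, Birc5 and Rrm2 numbered 3 of 23 in the control (exact interval of the share 2.78% to 33.6%) and 11 of 54 in the OTM library (10.6% to 33.5%), and the intervals overlapped. They held 98.9% of the 285 control UMIs and 99.7% of the 1079 OTM UMIs of the 6 genes. Of granule-low neutrophils 0 of 18 and 1 of 117 passed the same condition. Their median depth was 36475 UMIs in the control and 34510 in the OTM library, against 16194.5 and 11950 in the other members. The part of depth in this count was not tested.

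The dividing cells, 3 in the control and 11 in the OTM library, had more of some early and less of some late transcripts than the other members. Fcnb, ficolin-B of immature granulocytes, was at 641 CPM in dividing against 254 in other control members and at 1265 against 149 in OTM members, where the member richest in primary granule transcripts held 167 of the 543 Fcnb UMIs of dividing cells. Chil3 was at 10894 against 5431 and at 8469 against 3852. Retnlg, a resistin-like protein of late neutrophils, was at 18.6 against 10962 and at 349 against 9448. Mmp8, neutrophil collagenase, was at 18.6 against 1604 and at 25.6 against 1533, and Cxcl2, a neutrophil-attracting chemokine, at 27.9 against 402 and at 18.6 against 1580. Of the OTM UMIs, 770 of 778 for Prtn3 and 884 of 884 for Elane lay in dividing cells, but 2 of these 11 cells held most of them, with 575 and 150 for Prtn3 and 815 and 68 for Elane. The median granule share was 8.45% in dividing and 5.93% in other control members, and 9.69% and 6.43% in OTM members. Not every gene differed alike in both libraries. Cebpe was at 307 against 296 CPM in control and at 524 against 270 in OTM members. Lcn2 was at 13692 against 20540 and at 17853 against 17549.

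**Figure D2:**
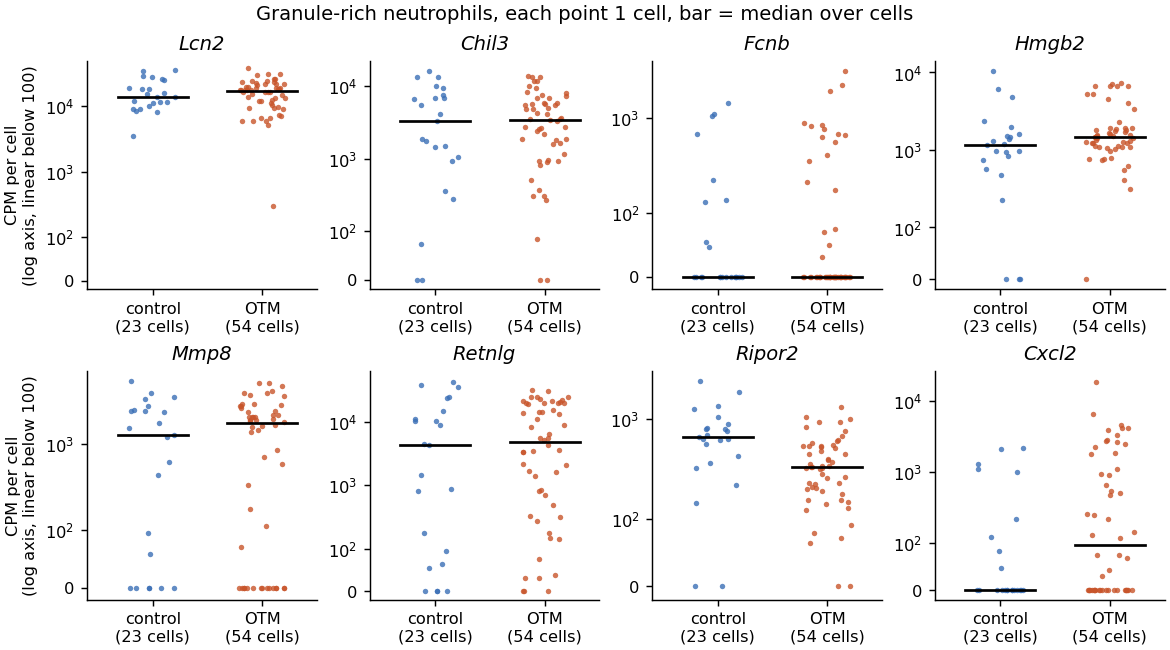
CPM per cell (vertical axes, log scale that is linear below 100) of 8 genes in the 23 control and 54 OTM granule-rich neutrophils; each point is 1 cell and the bar is the median over cells. The libraries overlap in every panel; Ripor2 medians are 656 in control and 335 in OTM cells, and Cxcl2 medians 0 and 96.3.

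Genes of late maturation did not differ in 1 direction. Of 12 eligible genes 1 was at least 2-fold higher and 0 lower, with a median log2 ratio of -0.20 (between -0.51 and 0.58 under the alternatives). Retnlg ran from 0 to 42659 CPM per cell in control members (median 4284) and from 0 to 31185 in OTM members (median 4732), log2 ratio -0.55. Il1r2, the decoy receptor for interleukin 1, was at 201 and 287 CPM, log2 ratio 0.52. The gene past 2-fold was Ccl6, a CC chemokine with 1 and 37 UMIs (log2 ratio 3.94, 1.37 to 9.28).

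Activation genes leaned to the OTM library. Past 2-fold were 6 of 16 eligible genes, all higher, against 10.1% of all eligible genes, and the median log2 ratio was 0.29. Cxcl2 was detected in 9 of 23 control members, with a median of 0 CPM and a highest value of 2158, and in 32 of 54 OTM members, with a median of 96.3 and a highest value of 18814. Summed, it had 128 and 922 UMIs, or 306 and 915 CPM, which is a log2 ratio of 1.58 (interval 1.31 to 1.86). The ranges overlapped, and the lowest cell was at 0 in both libraries. The log2 ratio was between 1.19 and 3.97 under the 18 alternatives. In all other barcodes Cxcl2 was at 1336 CPM in the control and 865 in the OTM library, and the part of free RNA in the droplets was not tested.

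Further activation genes had fewer UMIs. Il1b, interleukin 1 beta, was found in 6 control and 14 OTM members with 45 and 276 UMIs (log2 ratio 1.35, 0.89 to 1.84), 98 of the latter in 1 cell. Osm, oncostatin M, had 22 UMIs in 10 control members and 157 in 41 OTM members (1.57, 0.92 to 2.28). Hcar2, a receptor for hydroxybutyrate and niacin, had 19 and 117 UMIs (1.36), and Nlrp3, the inflammasome sensor, 16 and 97 (1.33). Osm was the most widely spread over cells of these 4, and Il1b the least. Icam1, an adhesion molecule, had 3 and 136 UMIs, of which 115 lay in the OTM member rich in endothelial markers (log2 ratio 4.24, and 1.56 without the highest cell of each library). Thbs1, thrombospondin 1, was level at 294 and 301 CPM, and Ccl3 and Ccl4, CC chemokines, had log2 ratios of -0.52 and -0.34.

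NF-kB feedback genes differed less: 1 of 12 was at least 2-fold higher, Nfkb1 with 31 and 159 UMIs (log2 ratio 1.09, and 0.67 without the OTM member rich in endothelial markers, which held 46), and the median was 0.18, between -0.02 and 0.79 under the alternatives. Tnfaip3, the deubiquitinase A20, had a log2 ratio of 0.89, and Nfkbia, the inhibitor of NF-kB that is induced by it, was at 463 and 503 CPM. Among 16 immediate early and heat shock genes 4 were past 2-fold, all higher, against 10.1% of all eligible genes. Their median was 0.56, and it was -0.15 in cells of larger granule share. Without both of the OTM members 2 of 14 were past 2-fold, against 5.84% of all eligible genes, with a median of 0.22. Fos had 58 UMIs in 17 control members and 311 in 44 OTM members (log2 ratio 1.16) and Dusp1, a MAP kinase phosphatase, 24 and 134 (1.21). Atf3 and Hspa1a had 1 control UMI each against 28 and 27, of which 18 and 20 lay in the OTM member rich in endothelial markers. Jun was at 260 and 155 CPM, log2 ratio -0.75. Such genes also respond to tissue digestion, which both groups went through, and its part was not tested.

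Signals that act on osteoclasts were sparse in these cells. Tnfsf11, which encodes RANKL, the cytokine that osteoclasts need to form, had 0 UMIs in both libraries. The exact Poisson interval of a count of 0 reaches up to 8.81 CPM in control and 3.66 CPM in OTM members. Csf1 had 1 and 12 UMIs, Il6 0 and 1, and Il1a 0 and 6, all under the eligible level. Of 6 eligible genes 3 were at least 2-fold higher (Il1b, Osm and Spp1), against 10.1% of all eligible genes, with a median log2 ratio of 0.84. Tnf was at 64.5 and 81.4 CPM, log2 ratio 0.34 with an interval of -0.31 to 1.02. Spp1, osteopontin, had 2 and 113 UMIs, 53 of them in 1 cell. Spp1 is also one of the 7 osteoblast markers, which summed to 3 UMIs in control and 119 in OTM members. In barcodes outside both neutrophil groups these markers summed to 4297 and 6173 CPM. The part of RNA from other cells in this value was not tested.

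Genes of the neutrophil's killing machinery were within 2-fold apart from the 2 primary granule genes in that list. Cybb, the catalytic subunit of the NADPH oxidase, was at 1304 and 1279 CPM, log2 ratio -0.03, Cyba, its partner subunit, had a log2 ratio of 0.10, and Padi4, the enzyme that citrullinates histones in extracellular traps, -0.19. Of the 10 eligible genes Mpo and Elane were at least 2-fold higher and the median was 0.07. In adhesion and migration, 0 of 13 were at least 2-fold higher and 1 lower, Itga4 with 14 and 15 UMIs (log2 ratio -1.17), and the median was -0.26. Itgam, the CD11b integrin, was at 724 and 624 CPM, and Cxcr2, the receptor for Cxcl2, at 229 and 165. Glycolysis and hypoxia genes had 1 of 14 higher (Vegfa, 4 and 25 UMIs) and a median of 0.05. Gapdh was at 1488 and 1422 CPM.

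In the remaining lists few genes were 2-fold apart. Survival and death had 1 of 7 higher (Bax, 3 and 27 UMIs, 12 of them in the OTM member rich in endothelial markers), interferon genes 1 of 5 higher (Irf7, 6 and 29 UMIs), and protein synthesis and the secretory pathway 2 of 13 higher. The latter were Eef1a1, an elongation factor, at 447 and 901 CPM (log2 ratio 1.01, 0.78 to 1.25), and Npm1, nucleophosmin, at 66.9 and 140 (1.06). The OTM member richest in primary granule transcripts held 176 of the Eef1a1 and 34 of the Npm1 UMIs, and the one rich in endothelial markers 90 and 22. Without both the log2 ratios were 0.67 and 0.49, so that 0 of 13 genes of the list were past 2-fold, and the list median was -0.04 in place of 0.23; it lay between -0.41 and 1.29 under the alternatives. Mcl1, the survival factor of neutrophils, was at 998 and 1007 CPM. Antiproteases and antimicrobial genes had 0 of 10 higher and 2 lower, Stfa2l1 and Stfa3, with a median of -0.17. Lyz2, lysozyme, was at 13672 and 12054 CPM.

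**Figure D3:**
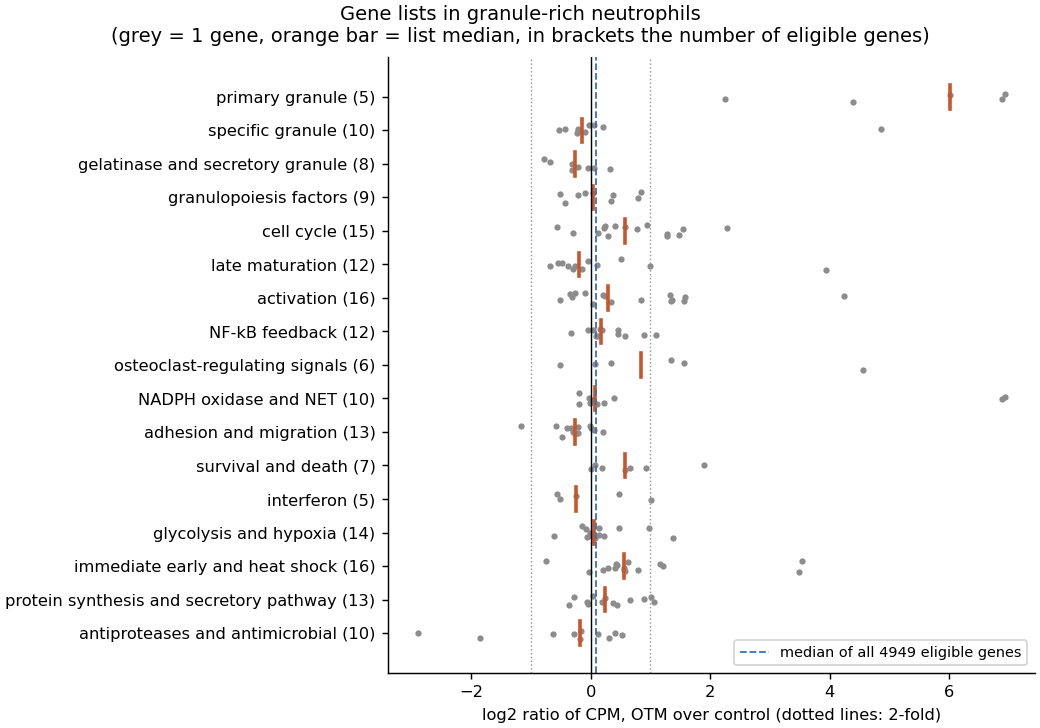
log2 ratio of CPM, OTM over control, for the eligible genes of 17 lists in granule-rich neutrophils; each grey point is 1 gene, the orange bar the list median, the dashed line the median of all 4949 eligible genes (0.10) and the dotted lines 2-fold. The primary granule list is the one whose median (6.01) lies past 2-fold; the specific granule median is -0.15 with Olfm4 far to the right.

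By the rule for named genes, which ranked eligible genes detected in at least 20% of members of the higher library by the near bound of the interval, 12 were taken in each direction. Those higher in OTM members were Prtn3, Selp, Ube2c, Nme2, Mfsd10, Cdc20, Cxcl2, Zfp36l1, Ms4a3, Spata13, Fam217b and March3. Spata13, a guanine nucleotide exchange factor, was the most evenly spread of those not yet given, with 6 UMIs in 4 control members and 73 in 29 OTM members, at most 7 in 1 cell (log2 ratio 2.34, 1.15 to 3.83). March3, a membrane-bound ubiquitin ligase, had 8 and 84 UMIs (2.12). The OTM member rich in endothelial markers held 33 of the 84, and the log2 ratio was 1.48 without it. Zfp36l1, an RNA-binding protein that destabilises transcripts, had 0 and 23 UMIs, 8 of them in that member. Against the floor it was 3.18-fold higher (lower bound of the log2 ratio 1.26). Fam217b had 0 and 21 UMIs, 2.91-fold higher against the floor (lower bound 1.11). Nme2, a nucleoside diphosphate kinase, had 2 and 58 UMIs. The member richest in primary granule transcripts held 27 of the 58 and the one rich in endothelial markers 13. Without both the log2 ratio of Nme2 was 2.06 in place of 3.59. Selp, P-selectin of endothelium and platelets, had 5 and 216 UMIs, but 197 of them lay in the OTM member rich in endothelial markers, and without that cell the log2 ratio was 0.73 in place of 4.17.

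Of the genes lower in OTM members, Ripor2, Cdk8 and Il31ra were found in most control cells (21, 21 and 19 of 23). Ripor2, an inhibitor of RhoA that acts in neutrophil polarity, ran from 0 to 2374 CPM per cell in control members (median 656) and from 0 to 1314 in OTM members (median 335). Its sums were 769 and 335 CPM, a log2 ratio of -1.20 (-1.42 to -0.97). Cdk8, a kinase of the Mediator complex, ran from 0 to 795 (median 377) and from 0 to 678 (median 127), log2 ratio -1.26. Il31ra, a cytokine receptor subunit, ran from 0 to 883 (median 108) and from 0 to 542 (median 34.7), log2 ratio -1.71. In all 3 the OTM median lay below the control median while the ranges overlapped. In granule-low neutrophils the log2 ratios were -1.10, -1.04 and -1.16.

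The other 9 genes of that direction were Stfa2l1, Casp8, Manea, Pla2g7, Scaf4, Ubn2, Zmpste24, Alcam and Wwp1, with log2 ratios from -2.90 to -1.27. Stfa2l1, a stefin that inhibits cysteine proteases, had 68 and 22 UMIs, 42 of the control UMIs in 1 cell; stefin genes are near copies of each other, so reads could be shared between them. Casp8, the initiator caspase, had 39 and 25 UMIs, 32 of the control UMIs in 1 cell, and a log2 ratio of -1.91 that was 0.17 without the highest cell of each library. Zmpste24, a zinc metalloprotease that matures lamin A, was at 325 and 135 CPM, log2 ratio -1.27, which was -0.47 as a mean over cells. Alcam, an adhesion molecule of the immunoglobulin family, was at 289 and 119 CPM.

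The members varied along their granule share. Across cells of a library, the rank correlation (Spearman's rho) with the granule share was taken for 1465 genes detected in at least 50% of members of both libraries. The highest were Chil3 (0.86 in 23 control cells, 0.78 in 54 OTM cells), Lyz2 (0.73 and 0.75), Scp2, Lcn2 (0.74 and 0.63), Arhgdib and Serpinb1a (0.84 and 0.61). The lowest were Mmp8 (-0.64 and -0.65), S100a11 (-0.65 and -0.58), Adam8 (-0.58 and -0.57), Sipa1l1, Malat1 and Msrb1. These are descriptions: cells of 1 library share that library, and the granule share itself went with the UMIs per cell, with rho of 0.65 and 0.63. With the 11 control or 27 OTM cells at each end of the ranking summed, Chil3 was at 959 CPM at the lower and 9738 at the upper end of control members, and at 2319 and 7987 in OTM members. Mmp8 went the other way, from 3060 to 331 and from 1657 to 416, and Adam8, a membrane protease of gelatinase granules, from 488 to 56.9 and from 337 to 108.

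**Figure D4:**
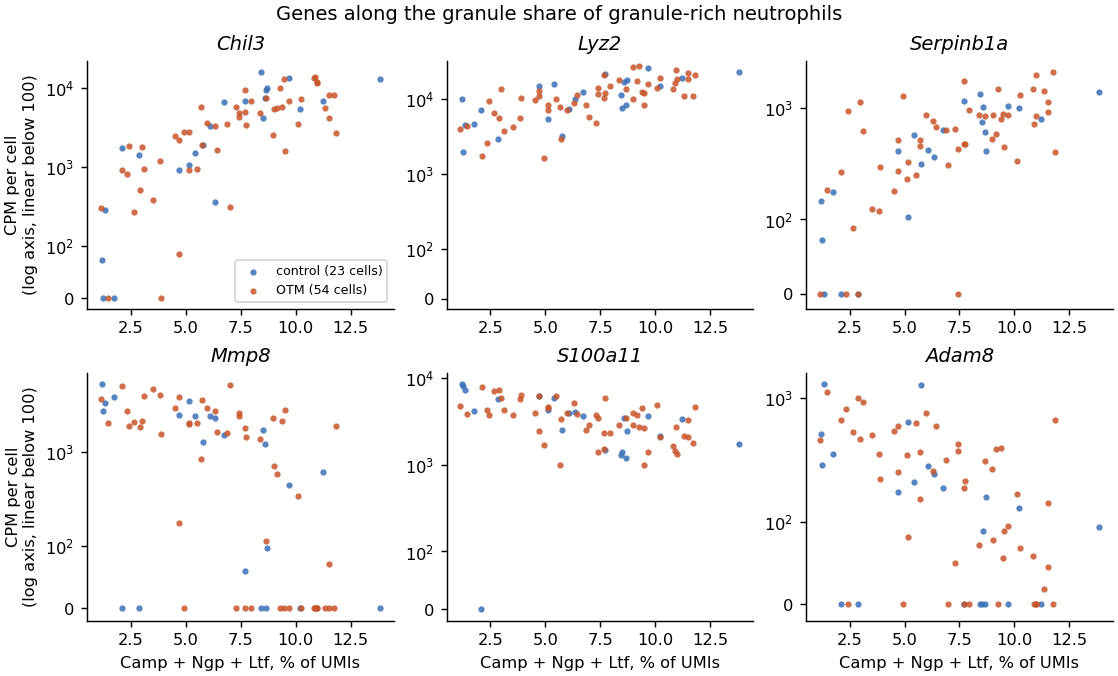
CPM per cell (vertical axes, log scale that is linear below 100) against the share of UMIs from Camp plus Ngp plus Ltf (horizontal axes, percent) for 6 genes in 23 control and 54 OTM granule-rich neutrophils. Chil3, Lyz2 and Serpinb1a are higher in cells with a larger granule share and Mmp8, S100a11 and Adam8 lower, with control and OTM cells intermixed.

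The members were also compared on each side of the median granule share of all members, 7%. There were 10 control and 29 OTM cells at or above it and 13 and 25 below it, among the latter the OTM members richest in primary granule transcripts and in endothelial markers. On the granule-richer side 251 of 3710 eligible genes (6.77%) lay at least 2-fold higher and 186 (5.01%) lower, and on the poorer side 627 of 2721 (23%) and 133 (4.89%). Without both members the poorer side had 211 of 2083 (10.1%) higher and 75 (3.6%) lower, from 233847 in place of 339115 OTM UMIs. Some genes took opposite directions: Retnlg was at 957 and 2536 CPM on the granule-richer side (log2 ratio 1.41, interval 1.21 to 1.60) and at 20605 and 11562 on the granule-poorer side (-0.83, -0.90 to -0.77). Slpi, secretory leukocyte protease inhibitor, had log2 ratios of 1.06 and -0.96 in the same order, and Mmp8 0.75 and -0.66. Without both members the poorer side had -0.34 for Retnlg, -0.52 for Slpi and -0.14 for Mmp8. The pooled ratios of these genes joined both sides.

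Cxcl2 and Ripor2 kept their direction. Cxcl2 had 8 and 315 UMIs on the granule-richer side (log2 ratio 3.97, 2.97 to 5.19) and 120 and 607 on the poorer side (1.19, 0.91 to 1.49), and Ripor2 had -1.10 and -1.27. Without both members the poorer side had 1.61 for Cxcl2 and -0.94 for Ripor2. Olfm4 had 0 control UMIs on both sides and 120 and 89 OTM UMIs. Fcnb had a log2 ratio of 0.28 on the richer side, and 0 control and 177 OTM UMIs on the poorer side, of which 1 was left without both members. Cebpb had log2 ratios of 1.86 and 0.26 (0.51 without both members) and Fos of 0.60 and 1.69 (2.13). Eef1a1 had 0.56 and 2.10, with 37 control and 351 OTM UMIs on the poorer side, 176 of the latter in 1 cell, and 0.59 without both members. The activation list had medians of 0.81 and 0.24, and the immediate early and heat shock list of -0.15 and 1.16. Protein synthesis and the secretory pathway had -0.18, with 0 of 13 genes higher and 1 lower, and 1.29, with 11 of 11 higher; without both members the latter was 0.59, with 1 of 7 higher. The cell cycle list had 0.18, with 3 of 15 higher and 1 lower, and 2.49, with 9 of 10 higher, of which 2 genes remained eligible without both members. The difference between the sides was not tested, and each rests on 10 to 29 cells.

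Finally, the granule-rich cells were set beside the granule-low neutrophils of the same library, which are the nearest other cells. The selection split them by granule transcripts, so the ratios describe how far the groups lie apart. Of 2805 genes that met the UMI minimum in both libraries, 198 (7.06%) were at least 2-fold higher in granule-rich cells in both libraries and 427 (15.2%) at least 2-fold lower. Specific granule genes were higher for 6 of 9, the 3 of the selection included, and lower for 0, cell cycle genes higher for 9 of 10, and genes of the NADPH oxidase and extracellular trap list for 3 of 8. Activation genes were lower for 13 of 17, NF-kB feedback genes for 9 of 11 and late maturation genes for 8 of 13, with 0 higher in each of these 3 lists.

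Of the higher genes named by rule, which left out markers of other cell types, Chil3 was furthest apart, at 6835 CPM in granule-rich and 15.3 in granule-low control cells and at 5819 and 48.7 in the OTM library. Cybb was at 1304 against 115 and at 1279 against 102. Cebpe was at 299 against 7.65 and at 378 against 41.2. Fcnb had 0 UMIs in granule-low control cells. Against a floor of 3 UMIs it was 15.4-fold higher in granule-rich ones (lower bound of the log2 ratio 3.63). The others were Zmpste24, Gca, Olfml2b, Abca13, Lta4h and H2afx. Of the lower genes, Il1b was at 107 against 4806 CPM and at 274 against 5754, Cxcl2 at 306 against 10676 and at 915 against 11207, and Ccl4 at 50.2 against 1661 and at 39.7 against 2014. The higher Cxcl2 and Il1b sums of OTM members thus remained far below those of granule-low cells of either library. The rest were Zeb2, Acod1, Ccl3, Cstb, Smox, Dusp1 and Clec4d.

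**Figure D5:**
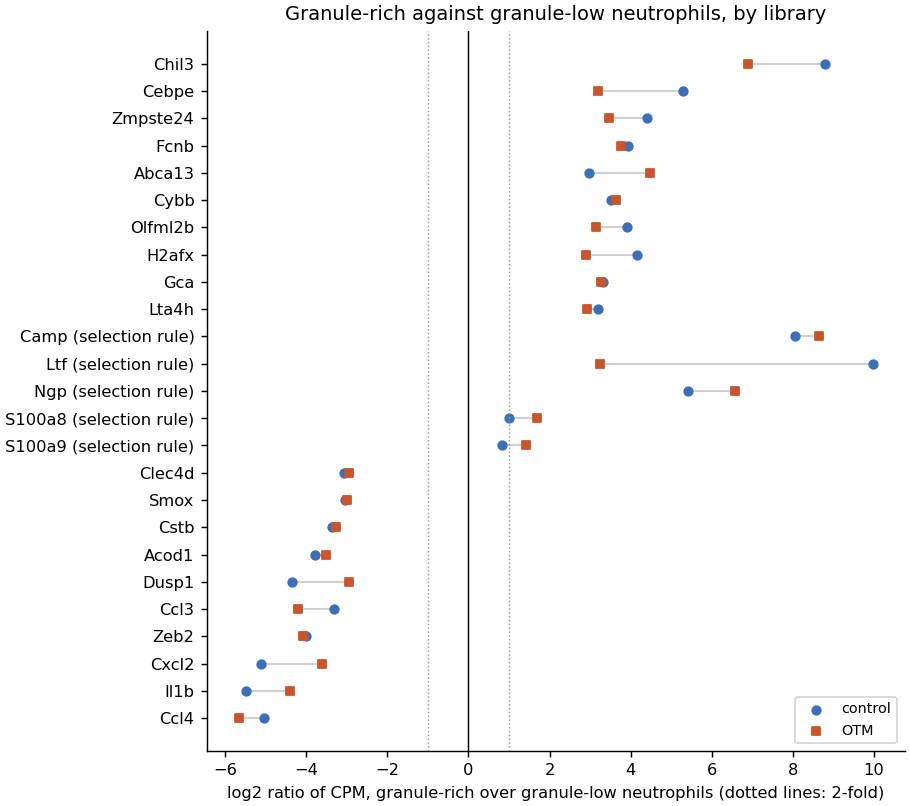
log2 ratio of CPM, granule-rich over granule-low neutrophils, for the genes named by rule and the 5 genes of the selection, in the control library (circles) and the OTM library (squares); dotted lines mark 2-fold. Both libraries lie on the same side of 0 for every gene shown. For the named genes this follows from the naming rule, and the 5 genes of the selection chose the cells. Ltf shows the widest gap between the libraries.

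The gap for Ltf came from few barcodes. Granule-low cells had 1 Ltf UMI in the control and 742 in the OTM library, 701 of them in 1 barcode of 112512 UMIs whose granule share was 0.625%, under the threshold. Granule-low barcodes are not a pure reference: epithelial markers took at least 0.5% of UMIs in 2 of 18 and 10 of 117 of them, and the epithelial list summed to 7477 and 8105 CPM there, against 7.16 and 6.94 CPM in granule-rich cells. Ppbp, a platelet chemokine, was at 153 CPM in control and 2124 in OTM granule-low cells, with 1427 of its 2267 OTM UMIs in 1 barcode and 0 UMIs in granule-rich cells. Primary granule transcripts took at least 0.5% of UMIs in 1 OTM granule-low barcode.

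The OTM over control ratios of the 2 neutrophil groups were read side by side. In granule-low cells at least 2-fold higher were 1080 of 4518 eligible genes (23.9%) and at least 2-fold lower 457 (10.1%), from 18 control and 117 OTM barcodes. The activation list had a median log2 ratio of 0.29 in granule-rich and 0.07 in granule-low cells, and Cxcl2 1.58 and 0.07. The adhesion and migration list had -0.26 and -0.88, and late maturation -0.20 and -0.64. The part of the smaller control total of granule-low cells and of their epithelial, platelet and primary granule transcripts was not tested, nor was the difference between the groups.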

How the data were processed

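Single cells of 2 libraries were sequenced with a 10x Genomics 3′ kit. The deposited matrices hold whole-number UMI counts per gene and barcode, not normalized; per the file headers they come from Cell Ranger 7.0.1. The names GRCm38 (mm10) and Seurat appear in the submitters' processing notes, and other settings are not given in the sources used here. The deposited counts cover 32285 genes. A barcode stayed in with 200 or more genes and no more than 20% mitochondrial counts: 348 of 369 in the control and 1412 of 1539 in the OTM library. No doublet call removed a barcode; Scrublet (scanpy 1.11.5) calls were left out as an alternative. The groups come from the sample labels.

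Counts were summed over the cells of a library and given as CPM. Poisson, Clopper-Pearson and conditional binomial intervals are exact 95% intervals. The interval of a difference of shares puts Clopper-Pearson limits, in place of Wilson limits, into Newcombe's formula and is approximate. All cover counting error only. A gene was eligible with at least 20 UMIs over both libraries and 3 expected in each. A difference of at least 2-fold was called. A sum of 0 was replaced by 3 UMIs in a ratio. The ratio and interval code was tested on simulated data (Python 3.11.15, numpy 2.4.6, scipy 1.17.1, pandas 2.3.3, matplotlib 3.10.9).

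The members, the 17 gene lists and the comparisons were chosen with earlier results of these data known. Genes were named by rule. For OTM against control these were the 12 eligible genes in each direction with the interval bound farthest from 0, detected in at least 20% of cells of the higher library. Against granule-low and all other barcodes they were the 10 with the largest ratio in the library nearer 0, and along the granule share the 6 highest and 6 lowest by rho. Mitochondrial, ribosomal, haemoglobin, predicted and sex-linked genes, the 5 genes of the selection and markers of other cell types were left out. From each list the most abundant genes and those with the largest ratios were named; other list genes were chosen after their values were seen. Ratios within thinned cells were computed for genes still eligible there. One list gene had no match in the files and is not analysed here. Gene positions are from GENCODE and promoters from RefSeq. Alternatives covered scaling, thresholds, doublets, depth and single cells; those on single cells, shallow cells, granule-low content and the 2 sides of the granule share were added after seeing the data.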

Additional observations from a re-analysis of the deposited data

Results flagged for a closer look

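For 6 flagged genes the ratio of OTM over control was on opposite sides of 0 in granule-rich and granule-low neutrophils. Neither counting interval reached 0, and both log2 ratios lay at least 0.5 from 0. All 6 are genes of the lists or genes named by rule. How many of all eligible genes meet these conditions is not given here. The difference between the 2 groups of cells was not tested, and each ratio compares 1 library with 1 library. Of these, 5 were higher in OTM granule-rich cells and lower in OTM granule-low cells. March3, a ubiquitin ligase, had log2 ratios of 2.12 (1.08 to 3.38) in granule-rich and -0.87 (-1.38 to -0.32) in granule-low cells. Ccl6 had 3.94 (1.37 to 9.28) and -0.68 (-1.02 to -0.33), with 1 UMI in control granule-rich cells. Nlrp3 had 1.33 (0.56 to 2.20) and -0.67 (-0.87 to -0.47). Tnfaip3 had 0.89 (0.27 to 1.56) and -0.65 (-0.98 to -0.31). Zfp36, which binds and destabilises cytokine transcripts, had 0.56 (0.23 to 0.90) and -0.66 (-0.90 to -0.41). The OTM granule-rich member rich in endothelial markers held 33 of 84 OTM UMIs for March3, 19 of 97 for Nlrp3 and 21 of 116 for Tnfaip3. Without it the granule-rich log2 ratios of these 5 genes, in the order given, were 1.48, 3.76, 1.09, 0.68 and 0.60. Slpi went the other way, with -0.63 (-0.81 to -0.44) in granule-rich and 0.52 (0.34 to 0.70) in granule-low cells. Slpi is also made by epithelium, and epithelial markers were at 8105 CPM in OTM and 7477 in control granule-low cells; their part in the result was not tested.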

How the results depend on the processing

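No paired analysis was possible because each group is 1 library. With 23 and 54 cells, ratios of genes with few UMIs have wide intervals, and single cells decide several of them. The number of genes at least 2-fold lower was 273 as a mean over cells. After thinning to 1500 UMIs it was 11, with 88 higher, of 611 eligible genes, and 16 list genes higher; with at least 100 UMIs per gene it was 11, with 75 higher, of 1471, and 0 list genes lower. Fewer genes were eligible in both. In cells at or above the median granule share 251 genes were higher and 186 lower, 6 list genes were lower, and the immediate early and heat shock median was -0.15; below it 51 list genes were higher. The survival and death median was -0.067 in thinned cells, from 1 gene. Without the highest cell of each library Casp8 was at 0.17. The cause of the other changes was not tested. Without the OTM member rich in endothelial markers 383 genes were higher, without the one rich in primary granule transcripts 394, and without both 265, with 166 lower, of 4536. Below the median granule share without both, 211 were higher and 75 lower, of 2083, with 1 list gene lower. Of all values under alternatives, 752 were classed as close to the reported one, 67 as moved and 3 as reversed. The 3 were the survival and death median, the immediate early and heat shock median and Casp8. Changes of sign were more frequent than this class. The interferon median kept its direction in 13 of 18 alternatives, and the medians of granulopoiesis factors and of protein synthesis and the secretory pathway in 14 of 18.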
